A study of Mus musculus with 2 samples.

Results

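Thyroid hormone reaches the brain as a circulating prohormone, is activated inside it and acts on nuclear receptors, and 8 genes of that route were followed here in aged mouse cortex. They were Slco1c1 (a transporter), Ttr and Crym (hormone-binding proteins), Dio2 (the activating enzyme), Thra and Thrb (the receptors) and Hr and Klf9 (genes that respond to the hormone). Members were chosen by gene symbol, joined to the quantification tables by gene identifier, and each symbol matched 1 row, so the group is 8 of 55536 annotated genes, or 8 of 22015 nuclear protein-coding genes. The rule itself uses no measured value, but the members were chosen with earlier results of these data known.

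The libraries were 2 replicates of a single group, made from total RNA of left cerebral cortex. The mice were male, of the F1 hybrid strain B6CASTF1/J (a B6 parent crossed with a CAST parent), and 18 to 20 months old. No treatment, transgene or second genotype is named in the labels. The labels number them as biological replicates, with the same donor identifier and separate biosample identifiers. Separate animals are not named, so how much of the spread between them is biological and how much technical is not known. With 1 group there was no condition to compare, and no p-value is given. Each value describes what the aged cortex contained and how far 2 libraries of it differed.

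As background, the thyroid secretes mainly thyroxine, which has low affinity for the receptors. Transporters of the capillary wall and of brain cells admit it, the type 2 deiodinase of astrocytes removes an outer-ring iodine to give triiodothyronine, and the type 3 deiodinase of neurons inactivates both. Triiodothyronine binds receptors that sit on DNA as partners of retinoid X receptors, where corepressors are exchanged for coactivators and responsive genes are transcribed.

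Annotated genes received 22827996 expected counts in replicate 1 and 29897545 in replicate 2. Expected counts are estimates of the reads a gene received. The libraries differed by more than sampling noise: a chi-square statistic over 17965 genes was 13.3 times its degrees of freedom. Levels are given as TPM, a transcript's share of its library corrected for transcript length, which can be compared between genes. Detection required at least 1 TPM in each library. Means are over both libraries, with the SD (n = 2).

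The tissue label was set against marker lists. All 8 pan-neuronal markers were detected, with means from 140.4 TPM (Rbfox3) to 1434 TPM (Snap25), and so were all 6 of excitatory cortical neurons (Neurod6 at 25.6 to Camk2a at 1112 TPM) and all 7 of inhibitory neurons (Vip at 22.9 to Sst at 187 TPM). Every measured marker was also detected for deep cortical layers (8 genes, Foxp2 at 6.05 to Tbr1 at 52.5 TPM), astrocytes (10, Aldh1l1 at 22.1 to Slc1a2 at 698 TPM) and oligodendrocytes (7, Opalin at 2.36 to Mbp at 389 TPM). The same held for microglia (6, Aif1 at 4.75 to Csf1r at 26.3 TPM), endothelium (10, Tek at 3.33 to Slc2a1 at 45.1 TPM) and erythroid cells (5, Alas2 at 1.62 to Hba-a1 at 151 TPM). Of 8 markers of meninges and fibroblasts 7 were detected, with Igf2 highest at 47.2 TPM and Lum, at 0.860 TPM, the undetected gene and the lowest. Of 6 markers of ependyma and tanycytes 3 were detected, Col23a1 being highest at 6.25 TPM and Rax being at 0 in both libraries. All 10 markers of striatal projection neurons were detected, from Gpr6 at 3.61 to Ppp1r1b at 99.8 TPM, and all 10 were past 2-fold higher in replicate 2, their summed counts by 1.19 on the log2 scale.

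All 8 members were detected, where 58.5% of nuclear protein-coding genes were. Because the members were chosen with earlier results known, this comparison is not a test. They spanned from 12.4 TPM for Hr to 358 TPM for Thra. Summed, the members held 600.1 TPM in replicate 1 and 581 TPM in replicate 2, of which Thra alone made up 59.7% and 61.6%. TPM depends on which RNAs share the total: over nuclear protein-coding genes alone the means ran from 27.1 TPM (Hr) to 788 TPM (Thra), and in the second quantification of the same reads from 15.8 to 556 TPM. The order of means, the same on all 3 scales, was Thra, Klf9, Thrb, Crym, Dio2, Slco1c1, Ttr and Hr. Neighbours in that order were called different where the deposited intervals of their TPM stood apart, with the same gene above, in each library, and 4 of 7 neighbouring pairs passed. Thrb and Crym, Crym and Dio2, and Ttr and Hr did not. Thrb and Crym changed order between the libraries, with overlapping intervals in replicate 2, and Ttr and Hr changed order with intervals apart in both.

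**Figure D1:**
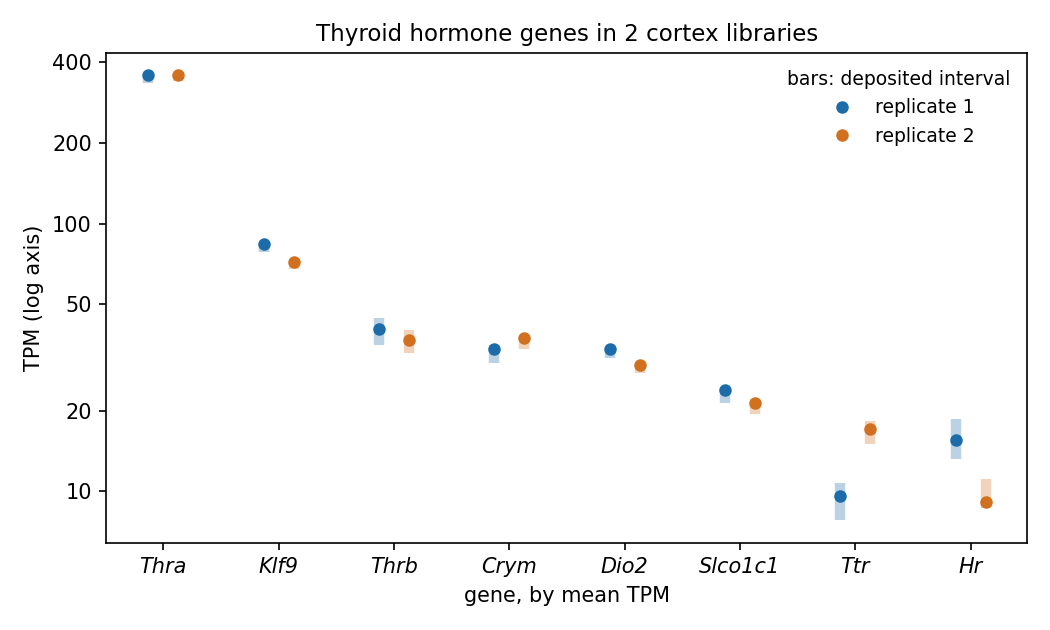
TPM of the 8 members (log axis) in each library, with replicate 1 in blue and replicate 2 in orange; points are the deposited TPM and pale bars the deposited interval around the posterior mean, which need not hold the point. Thra sits at 358 TPM in both libraries, above every other member, while Ttr and Hr change places.

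Slco1c1 encodes an organic anion transporter of the capillary wall and of astrocytes with high affinity for thyroxine (chromosome 6, 141524368 to 141570177, plus strand, GRCm38). It stood at 23.9 TPM in replicate 1 and 21.4 TPM in replicate 2, a mean of 22.7 ± 1.81 TPM (SD, n = 2), above 60.9% of the 12868 detected protein-coding genes. Slc16a10, a carrier of aromatic amino acids and thyroid hormones, stood far lower, at 1.66 and 1.77 TPM. All 6 transporters on the list were detected, the highest being Slc3a2, the shared heavy chain of the amino acid exchangers Slc7a5 and Slc7a8, at 66.2 ± 1.34 TPM. Slc7a5 (30.9 and 22.8 TPM) and Slc7a8 (25.4 and 22.6 TPM) were separated in replicate 1 only.

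Most Slco1c1 abundance was assigned to a model annotated as a target of nonsense-mediated decay. Slco1c1-202 and the coding model Slco1c1-201 differ at the start of exon 11, where 41 bases at chr6:141559741-141559781 are present in Slco1c1-201 and absent from Slco1c1-202. The number of bases is not a multiple of 3, so the reading frame shifts: Slco1c1-201 holds 715 codons before its stop and Slco1c1-202 holds 469. Both joins are shown because the assignment between the models rests in part on them, with the 41 bases in capitals and 24 flanking bases on each side, from the plus strand.
Slco1c1-201: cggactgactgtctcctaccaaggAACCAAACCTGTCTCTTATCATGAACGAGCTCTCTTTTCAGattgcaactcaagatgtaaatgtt
Slco1c1-202: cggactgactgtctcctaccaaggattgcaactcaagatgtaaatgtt
Slco1c1-202 held 58.1% of the gene's TPM in replicate 1 and 62.0% in replicate 2. In the second quantification, which was made directly from a read file, it held 62.8% and 61.4%. The coding models together held 30.6% and 36.2%, and 24.7% and 22.4% in the second quantification. Among them Slco1c1-201 held 13.4% and 19.9%, against 7.47% and 7.58% in the second quantification, and Slco1c1-206 held 17.2% and 16.3%. Slco1c1-205, also of the decay class, held 9.30% in replicate 1 and 0% in replicate 2, but 10.6% and 14.7% in the second quantification. Slco1c1-201 also extends 457 bases further at its 3′ end than Slco1c1-202, and how far its low share rests on reads of that end cannot be told apart from the 41-base join in these tables.

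Ttr encodes transthyretin, the thyroxine carrier that the choroid plexus secretes into cerebrospinal fluid (chromosome 18, 20665280 to 20674321, plus strand). It received 155 counts in replicate 1 and 385 in replicate 2, or 9.59 and 17.1 TPM, a mean of 13.3 ± 5.32 TPM. Replicate 2 was the higher library, and of the 8 members Ttr was the furthest apart. After scaling for library size, replicate 2 exceeded replicate 1 by 0.94 on the log2 scale, with a 95% counting interval of 0.67 to 1.22. Of 13 other markers of choroid plexus 3 were detected, and the summed TPM of the 13 was 95.7 in replicate 1 and 94.8 in replicate 2. Enpp2, which oligodendrocytes also express, held most of that sum at 90.6 and 89.9 TPM. Without Enpp2, left out after seeing the data, the other 12 genes summed to 5.10 and 4.97 TPM, a log2 count ratio of 0.06. Tmem72, 1 of these 12, differed widely between the quantifications, with 29 and 23 counts in the first. In the second quantification it had 2933 and 1925 counts (14.7 and 7.30 TPM), above the whole sum of the 12. The marker values here are of the first quantification only. There Kl gave the most counts of the 12, 108 in replicate 1 and 133 in replicate 2. Of the 8 markers with enough counts to be compared, Enpp2 and Clic6 were called higher in replicate 2 and none lower, and Clic6 was past 2-fold, with 21 and 57 counts. Counts also ran upward for Kcnj13 (18 and 32), Slc4a5 (1 and 9), Cldn2 (0 and 6), Sostdc1 (12 and 17), Prlr (59 and 62) and Kcne2 (0 and 3), the lowest on the list. They ran downward for Tmem72 (29 and 23) and Aqp1 (12 and 9), and were equal for Otx2 (3) and Folr1 (1), before any scaling for the deeper replicate 2. After scaling, the log2 ratio was below 0 for Prlr (-0.30), Kl (-0.07), Otx2 and Folr1 (both -0.37). The other genes named as upward stayed above 0. Apart from Enpp2 and Clic6, all these intervals held 0. The part of any one cell source in the Ttr difference was not tested, and in bulk tissue fewer cells of a type and less RNA per cell cannot be told apart.

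Crym encodes mu-crystallin, a cytosolic protein that binds triiodothyronine (chromosome 7, 120186380 to 120202111, minus strand). It stood at 34.0 TPM in replicate 1 and 37.4 TPM in replicate 2, a mean of 35.7 ± 2.35 TPM, above 74.8% of detected protein-coding genes. Crym exceeded Ttr by a log2 ratio of 1.83 in replicate 1 and 1.13 in replicate 2, a mean of 2.78-fold. Its main model, Crym-201, held 95.5% and 97.8% of its TPM, and the remainder was a retained-intron model. The plasma carriers made elsewhere were near absent: Alb (albumin) was at 0 counts in both libraries, and Serpina7 (thyroxine-binding globulin) had 0 and 2 counts. A floor of 3 counts per library would correspond to 0.252 and 0.181 TPM for Alb, while its deposited interval reached up to 1.38 and 0.999 TPM.

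Dio2 encodes the type 2 deiodinase, which makes triiodothyronine from thyroxine (chromosome 12, 90724552 to 90738438, minus strand). It received 2889 and 3485 counts, or 34.0 TPM in replicate 1 and 29.5 TPM in replicate 2, a mean of 31.7 ± 3.22 TPM. Dio3, the inactivating type 3 enzyme, stood at 1.36 and 1.73 TPM from 39 and 69 counts, the lowest mean among the detected pathway genes. Dio2 was the higher by a log2 ratio of 4.64 in replicate 1 and 4.09 in replicate 2, a mean of 20.6-fold. Dio1, the type 1 enzyme of liver and kidney, was at 0 counts in both libraries. Set against a floor of 3 counts per library, or 0.325 and 0.233 TPM for Dio1, Dio2 was 105-fold higher in replicate 1 and 126-fold higher in replicate 2. The deposited interval of Dio1 lay above that floor, at 0.362 to 1.83 TPM in replicate 1 and 0.256 to 1.33 TPM in replicate 2. Against those upper bounds the fold would be far smaller.

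Dio2 is a selenoprotein, in which the codon TGA (UGA in the RNA) is read as selenocysteine rather than as a stop. The single annotated model, Dio2-201, holds 266 codons before its stop, with in-frame TGA at codons 130 and 263. The bases around the first are shown in the sense of the transcript, with that codon in capitals, because it encodes the catalytic residue of the enzyme.
Dio2-201: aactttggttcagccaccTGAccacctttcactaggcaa
A long noncoding gene on the opposite strand, Gm26512, shares 100 exonic bases with Dio2. Gm26512 received 36 and 52 counts, beside the 2889 and 3485 of Dio2. These are counts after assignment, and how strand was treated is not given. They therefore do not show how many reads of the shared bases went to either gene.

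**Figure D2:**
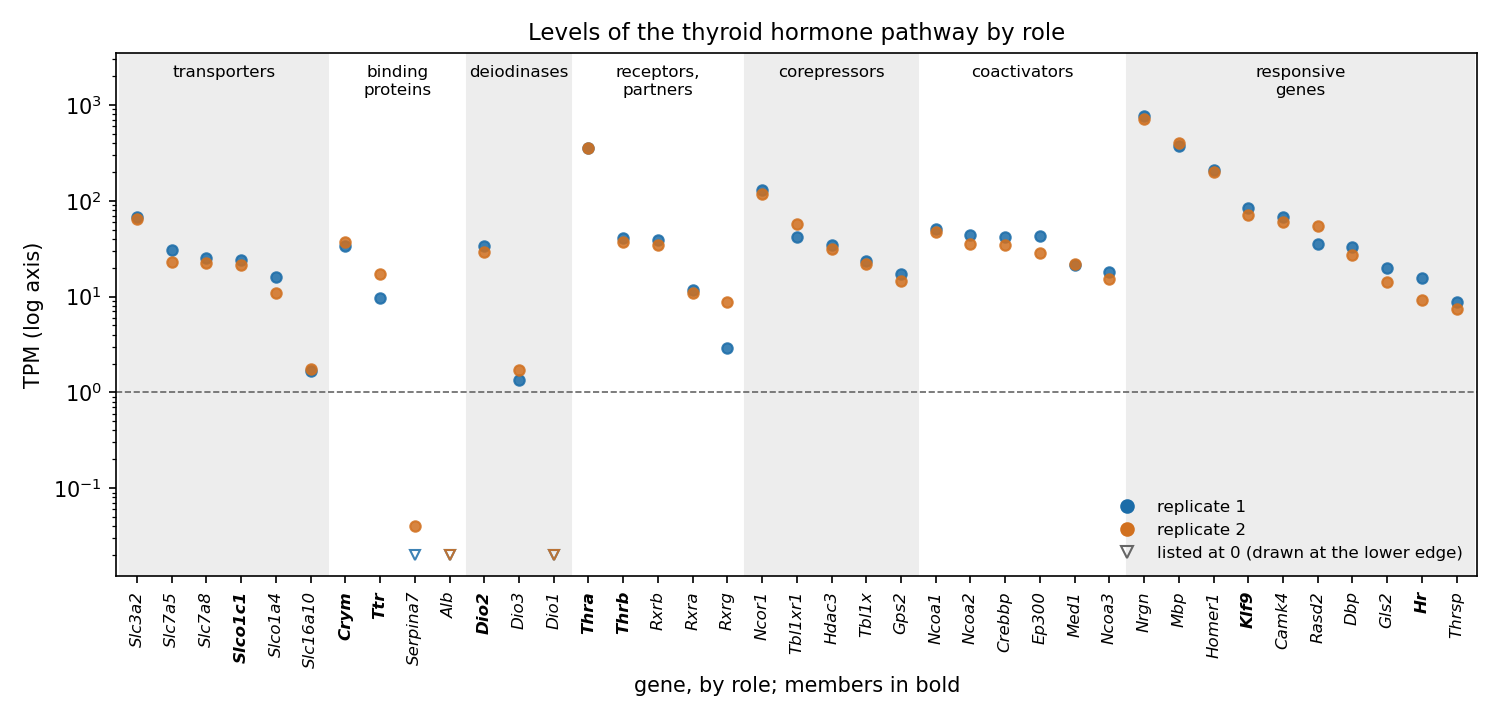
TPM (log axis) of the members (bold) and of the other pathway genes in each library, ordered by mean within each role, with the detection threshold of 1 TPM as a dashed line and values of 0 drawn as open triangles. Alb and Dio1 are at 0 in both libraries, and Rxrg and Ttr are the detected genes whose points lie furthest apart.

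Thra encodes the alpha receptor, the main thyroid hormone receptor gene of brain (chromosome 11, 98740638 to 98769006, plus strand). It received 10254 and 14403 counts and stood at 358 TPM in each library, a mean of 358 ± 0.0990 TPM, above 99.2% of detected protein-coding genes. The deposited intervals, 335 to 353 TPM in replicate 1 and 339.8 to 356 TPM in replicate 2, lay below that value. The small SD is therefore not a measure of precision. Thrb encodes the beta receptor (chromosome 14, 17660261 to 18038090, plus strand) and stood at 40.5 TPM in replicate 1 and 36.8 TPM in replicate 2, a mean of 38.7 ± 2.58 TPM. Thra exceeded Thrb by a log2 ratio of 3.15 and 3.28, a mean of 9.27-fold, with intervals far apart in both libraries, and by 3.03 on the log2 scale in the second quantification. Thra also exceeded the cytosolic binder Crym, by a log2 ratio of 3.40 and 3.26.

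Thra abundance divides between receptors with different last coding segments. The alpha1 form binds hormone, while the alpha2 form, which replaces the end of the ligand-binding domain, does not bind it and is known as a weak antagonist. In the annotation Thra-202 (alpha1, 410 codons) continues in the same exon past position 98764405, and Thra-201 (alpha2, 492 codons) is spliced from there to a last exon at 98768157 to 98769006. Thra-203 is spliced to a position 117 bases further into that exon and is a model of coding sequence alone, 1240 bases long against 2452 for Thra-201. The 24 shared bases are printed in lower case and the first 36 bases of each ending in capitals, because these endings set the forms apart.
Thra-202: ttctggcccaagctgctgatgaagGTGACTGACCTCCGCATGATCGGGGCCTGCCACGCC
Thra-201: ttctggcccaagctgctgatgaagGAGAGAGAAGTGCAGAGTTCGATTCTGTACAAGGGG
Thra-203: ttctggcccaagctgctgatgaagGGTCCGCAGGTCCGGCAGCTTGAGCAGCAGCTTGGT
Thra-201 held 57.0% of Thra TPM in replicate 1 and 58.9% in replicate 2, and Thra-202 held 13.2% and 10.6%. Thra-203 held 23.3% and 26.9%, but 14.2% and 16.2% in the second quantification. The alpha2-type ending, Thra-201 and Thra-203 together, summed to 288 and 307 TPM against 47.2 and 38.0 TPM for alpha1. The ratio was therefore 6.10 in replicate 1 and 8.09 in replicate 2, a mean of 7.09 ± 1.41 (SD, n = 2), and 6.21 ± 1.15 in the second quantification. Without Thra-203, an alternative chosen after seeing the data, it was 4.94 ± 0.868 and 4.95 ± 0.869. In all of these estimates the alpha2-type ending was the more abundant in both libraries. The hormone-binding form alpha1 was near the 40.5 and 36.8 TPM of Thrb as a whole, although Thra as a gene was far above it. Relative to the Thrb models with full beta1 or beta2 starts it was 1.75-fold in replicate 1 and 1.44-fold in replicate 2, a mean of 1.59 ± 0.217.

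The last exon of Thra overlaps the last exon of Nr1d1, a circadian repressor gene transcribed from the opposite strand, over 263 bases. Thra-201 holds all 263 of these bases, Thra-203 holds 130 and Thra-202 none. Nr1d1 received 1913 and 2018 counts and stood at 50.6 TPM in replicate 1 and 37.5 TPM in replicate 2, so Thra was 8.22-fold higher on average. How the counting treated strand is not given in the sources here, so some reads of the shared bases may have been assigned to the other gene.

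**Figure D3:**
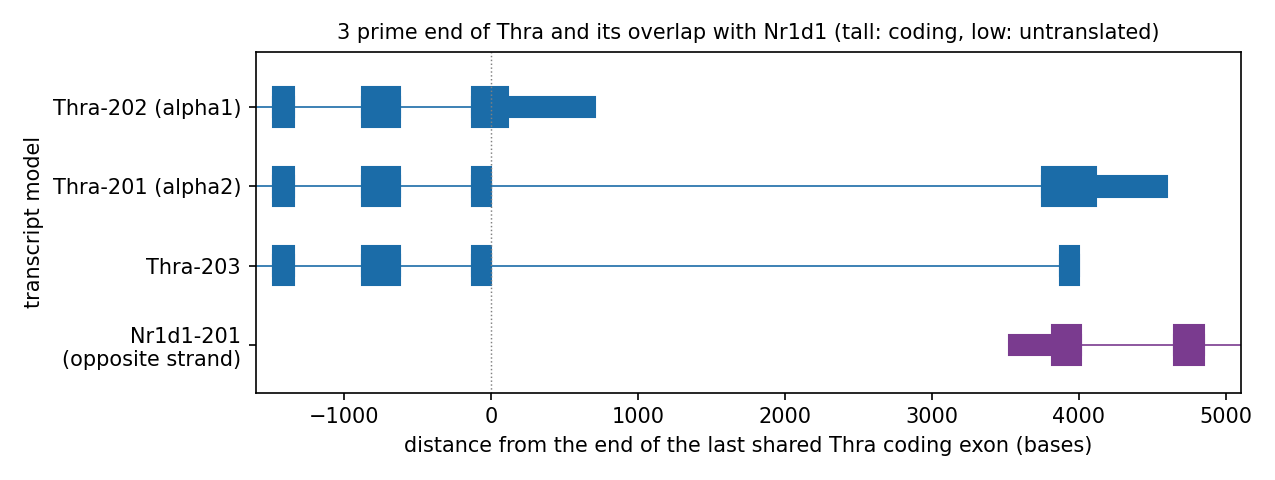
Transcript models at the 3′ end of Thra and of Nr1d1, drawn to scale by distance in bases from the end of the last shared Thra coding exon, with coding exons tall and untranslated parts low. Thra-202 ends before the region shared with Nr1d1, and Thra-201 and Thra-203 run into it.

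Of the 6 members with several models, Thrb had the lowest leading share. Separate promoters give the beta1 and beta2 receptors, which differ at the amino terminus; beta2 is known from pituitary, hypothalamus, cochlea and retina. Thrb-201 and Thrb-203 carry the beta1 start (461 codons in Thrb-201), and Thrb-202 carries the beta2 start (475 codons). The last 36 bases before the first shared exon are printed in capitals and the first 24 shared bases in lower case, since these joins tell the starts apart.
Thrb-201: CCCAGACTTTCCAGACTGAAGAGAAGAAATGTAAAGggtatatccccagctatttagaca
Thrb-202: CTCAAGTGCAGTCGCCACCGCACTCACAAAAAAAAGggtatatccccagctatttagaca
The leading single model was Thrb-202, with 29.9% of Thrb TPM in replicate 1 and 31.6% in replicate 2, and 24.7% and 25.6% in the second quantification. Thrb-201 held 19.0% ± 2.73 (SD, n = 2) and Thrb-203 held 19.4% ± 0.403, so that these 2 beta1 models together held 36.8% and 40.0%. These 2 models exceeded the beta2 model by 1.25 ± 0.0286-fold, and by 1.52 ± 0.0560-fold in the second quantification. Short models held the rest, 33.3% and 28.4%. Among them Thrb-206 was at 12.8% in each library and Thrb-205 at 4.89% and 4.46%, but at 22.0% and 22.5% in the second quantification. Thrb-204, Thrb-205 and Thrb-206 begin at 17660892, 17660261 and 17660532, beside 17660896 for Thrb-201, and end before the beta2 exon at 17981529. The ratio of beta1 to beta2 leaves their abundance out. Besides its own first exon of 673 bases, Thrb-202 extends 1531 bases beyond Thrb-201 at the 3′ end. Reads of the long 3′ end and reads of the beta2 exon both count toward Thrb-202, and they cannot be told apart in these tables.

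**Figure D4:**
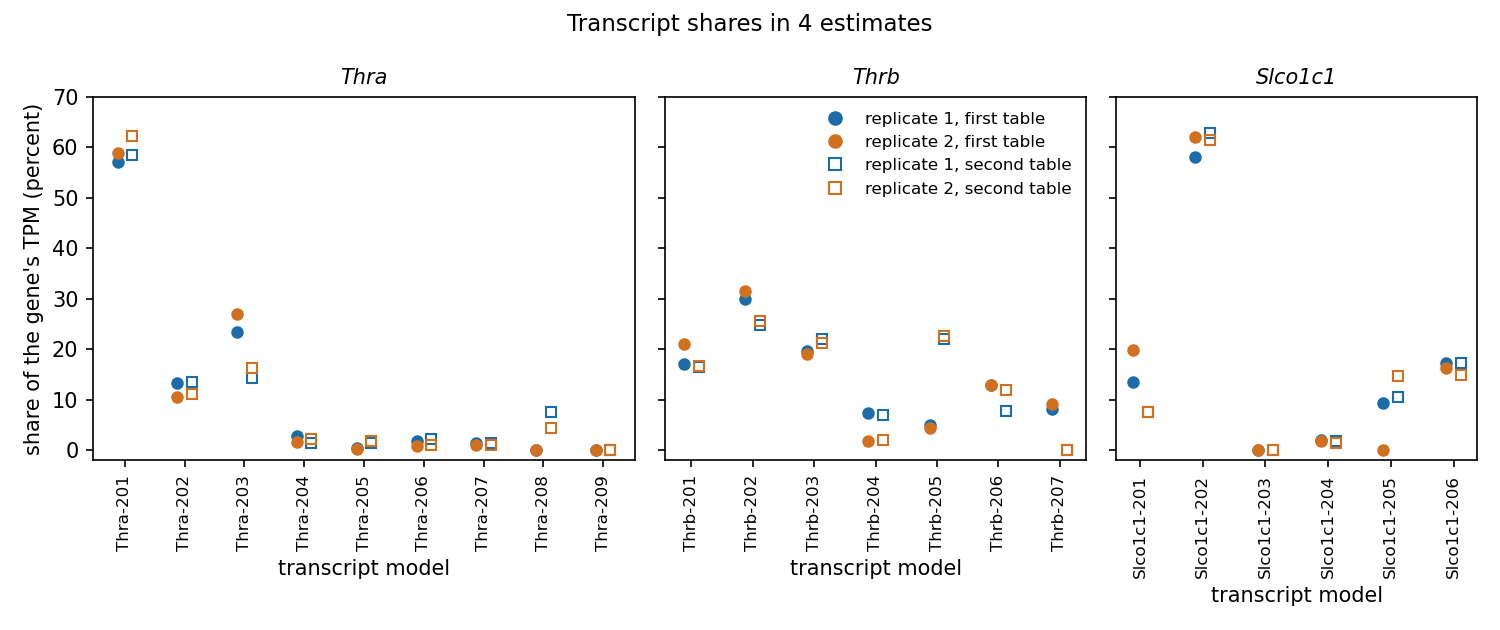
Share of each transcript model in its gene's TPM (percent) for Thra, Thrb and Slco1c1, with filled circles for the first transcript table, open squares for the second, blue for replicate 1 and orange for replicate 2. Thra-201 and Slco1c1-202 lie between 57.0% and 62.8% in all 4 estimates, while the leading Thrb model, Thrb-202, lies between 24.7% and 31.6%.

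The nuclear partners and cofactors of the receptors were all detected. Among retinoid X receptors, Rxrb stood at 39.1 and 34.7 TPM, Rxra at 11.3 ± 0.453 TPM, and Rxrg at 2.89 and 8.87 TPM. Rxrg was the only pathway gene past 2-fold between the libraries, with 81 counts in replicate 1 and 357 in replicate 2 and a log2 ratio of 1.77 (95% counting interval 1.42 to 2.14). All 10 striatal projection neuron markers were also higher in replicate 2, and their part in the Rxrg difference was not tested. Of the 5 corepressor genes the highest was Ncor1, at 123 ± 8.82 TPM, and the lowest Gps2, at 15.8 ± 2.02 TPM. The 6 coactivator genes lay between 16.7 ± 1.92 TPM (Ncoa3) and 49.3 ± 2.88 TPM (Ncoa1).

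Klf9 encodes a zinc finger transcription factor whose gene responds directly to triiodothyronine and to glucocorticoids (chromosome 19, 23141226 to 23168134, plus strand). It stood at 84.2 TPM in replicate 1 and 71.7 TPM in replicate 2, a mean of 78.0 ± 8.87 TPM, behind Thra alone among the members. Its model Klf9-201 held 95.8% and 97.4%. Hr encodes hairless, a corepressor that is itself induced by the hormone in developing brain (chromosome 14, 70552212 to 70573548, plus strand). It stood at 15.6 TPM in replicate 1 and 9.15 TPM in replicate 2, a mean of 12.4 ± 4.57 TPM. Klf9 exceeded Hr by a mean of 6.50-fold.

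Part of the Hr spread lay in short models. Hr-202 and Hr-204 held 12.5% and 8.53% of Hr TPM in replicate 1, on 6.45 and 4.71 expected counts, and 0% in replicate 2. Hr-201, the main coding model, was at 11.1 and 8.38 TPM, and Hr-203 reached 10% in the second quantification only, at 15.5% and 16.2%. On counts, 996 against 1019, the log2 ratio of Hr after scaling was -0.33, while on deposited TPM it was -0.65 relative to all genes. The list of responsive genes held 8 others, all detected, led by Nrgn, a calmodulin-binding protein of dendritic spines, at 762 and 711 TPM. Thrsp, named for its response to the hormone in liver, was the lowest at 8.10 ± 0.926 TPM.

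Between the replicates, a gene was called higher or lower where the 95% counting interval of its scaled ratio excluded 0. In all, 17.6% of 17965 genes were called higher in replicate 2 and 18.7% lower, so such a call says little about any single gene. Of the 8 members 3 were called higher (Thra, Ttr, Crym) and 3 lower (Dio2, Hr, Klf9). Counting intervals narrow as counts rise. The members had 155 counts or more in each library, while all genes tested reach down to a mean of 10. The shares over all genes are therefore not matched to the members' depth, and the members cannot be called more variable than other genes. The members' median log2 ratio was 0.03, beside 0.00 over all genes tested. None of the 8 was past 2-fold, where 1.14% of all genes were past 2-fold higher and 5.06% past 2-fold lower. Of the 31 other pathway genes 28 were detected. Of these 4 were called higher and 7 lower, and the median log2 ratio of the 28 was -0.05. Those called higher, beside Rxrg, were all responsive genes: Rasd2, a striatum-enriched small GTPase, at 0.76, the myelin gene Mbp at 0.18, and the synaptic scaffold gene Homer1 at 0.07. Those called lower were mostly cofactors, with the corepressor Ncor1 at -0.06 and the coactivators Ep300 at -0.19, Ncoa3 at -0.16 and Crebbp at -0.13. The remainder were the transporters Slco1a4 at -0.36 and Slc7a5 at -0.20 and the circadian output gene Dbp at -0.21. Among binding proteins Ttr and Crym alone had enough counts to be called, and both were higher. Of the deiodinases Dio2 and Dio3 had enough, and Dio2 was called lower.

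Thra was higher by 0.12 (0.09 to 0.16) on scaled counts, but by 0.02 (-0.02 to 0.06) when scaled by spike-ins, and its deposited TPM did not differ at the digits shown. Crym was higher by 0.21 (0.07 to 0.35), and by 0.11 (-0.03 to 0.25) when scaled by spike-ins. The calls of Ttr (higher), Hr and Klf9 (both lower) were kept under each of the 5 other treatments of the counts. The pseudocount does not enter the interval, so the treatment with a pseudocount of 2 could not change a call. DESeq2 size factors gave nearly the same ratios as TMM. The log2 ratio of Ttr was 1.09 in the second quantification, past 2-fold. That of Klf9 was -0.05 there, and its interval (-0.10 to -0.000) ended just below 0, so its call was kept only narrowly. Dio2 was lower by a log2 ratio of -0.10 (-0.17 to -0.03), and in the second quantification its ratio was -0.04 (-0.11 to 0.03). For Thrb the ratio was 0.09 (-0.002 to 0.17), and 0.19 (0.10 to 0.27) in the second quantification. Slco1c1 was at -0.02 (-0.15 to 0.10), a difference not detectable at this depth. Scaling by spike-ins moved the split over all genes to 6.3% higher and 31.5% lower.

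Klf9 also belongs to a list of 7 glucocorticoid-responsive genes, and all 7 were called lower in replicate 2, where 18.7% of all genes were. The list was chosen with earlier results of these data known, so this was not a test. The share over all genes also includes genes with far fewer counts, whose intervals are wider. The median log2 ratio of the 7, Klf9 included, was -0.44. Klf9 itself was at -0.10 (-0.16 to -0.05), the smallest of these ratios, while the others ran from -0.27 (Fkbp5) to -0.68 (Nfkbia). By mean TPM Nfkbia was the lowest of that list at 17.1 ± 7.66 TPM and Klf9 the highest. Astrocyte markers, which mark the cells known to express Dio2 and Slco1c1, had a median of 0.05 (4 of 10 higher, 1 lower). Endothelial markers had a median of -0.11 (1 of 10 higher, 3 lower). The part of these lists in the members' ratios was not tested.

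**Figure D5:**
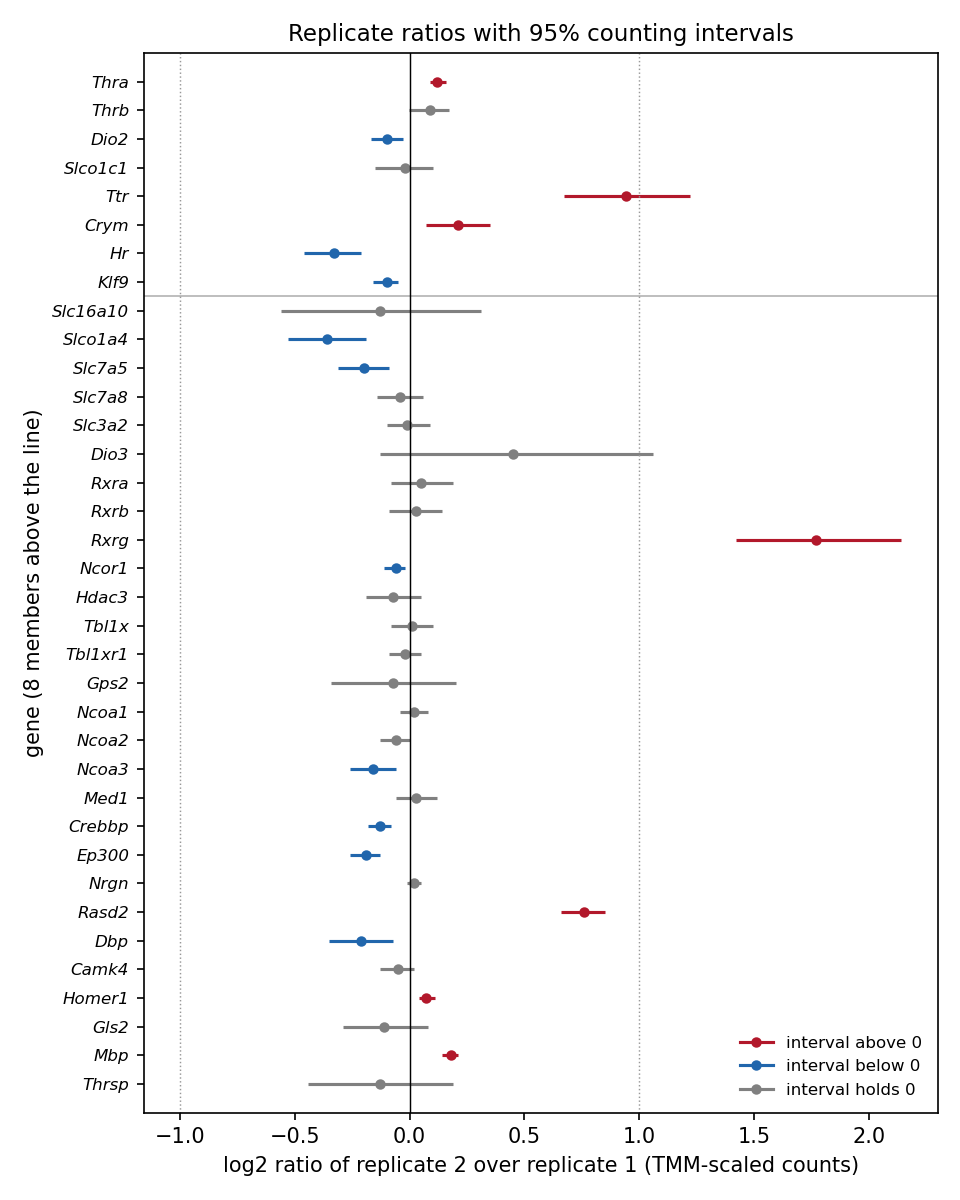
Log2 ratio of replicate 2 over replicate 1 after TMM scaling, with its 95% counting interval, for the 8 members (above the line) and the other pathway genes whose counts averaged at least 10; dotted lines mark 2-fold. Rxrg at 1.77, Ttr at 0.94 and Rasd2 at 0.76 lie furthest to the right.

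The leading transcript models were the same in every estimate. Dio2 and Ttr have 1 annotated model each. In all 6 members with several models the same model led in both libraries, where 89.5% of 9554 genes with 2 or more models and a TPM of at least 5 showed this, and the same model led in both libraries and both quantifications in 6 of 6, where 67.5% of those genes did.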

How the data were processed

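Total RNA-seq of 2 replicate libraries of a single group was analysed, with 3 deposited tables per library. Per the deposited file lists, reads were placed on mm10 (GRCm38) with GENCODE M21. The gene table and 1 transcript table follow the RSEM column layout, and the second transcript table the kallisto layout, per the file headers. Not given in the sources used here are the aligner, tool versions, quantifier settings and treatment of strand. The deposited expected counts (RSEM layout) and estimated counts (second table) are reads divided among transcripts by a model. The deposited TPM values are scaled to the same total over all listed features, and the members' TPM were higher in the second table; the cause was not tested. The deposited signal bounds of the TPM interval belong to the posterior mean TPM, so the deposited TPM lay outside them for 3 members in replicate 1 and 2 in replicate 2. The percent of a gene's TPM in each transcript is a deposited column of the first table and was calculated for the second.

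Gene counts were rounded and scaled by TMM factors (edgeR 4.0.16, R 4.3.3; 1.01 and 0.992) over genes averaging at least 10 counts, and 0.5 was added before taking log2 ratios. The log2 ratio of effective library sizes was 0.37. Intervals of ratios are 95% Clopper-Pearson intervals from the 2 counts. They cover counting error only, because no spread between libraries enters them. PCR copies also cannot be told from separate molecules. The interval calculation was tested on simulated counts with sampling noise alone, which lack the added spread between the real libraries. Sequences come from the GENCODE M21 transcripts. Alternatives were DESeq2 1.42.0 size factors, spike-in totals, deposited TPM (0.1 added), a pseudocount of 2, no filter on low counts, the second table, posterior means, protein-coding TPM, and leaving out each replicate.

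The members and gene lists were chosen with earlier results of these data known. Named were all members, the highest and lowest gene of each list by mean TPM, genes at 0 in both libraries, genes past 2-fold, both genes of 9 set pairs, and transcripts with a mean share of 10% or more in either table. The other genes called between the replicates, and markers named beside Ttr, were added after their values were seen. Of 149 listed genes 148 were found by symbol; Ctgf was not. Some listed genes and the pairs holding them are not reported here, and counts leave them out.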

Additional observations from a re-analysis of the deposited data

How the results depend on the processing

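The order of the 8 members by mean TPM kept all 7 of its neighbouring steps under the second transcript table, posterior mean TPM and TPM over protein-coding genes, and 6 of 7 without replicate 1 or without replicate 2. Of 9 set pairs, the first gene was higher in both libraries in 9 under every alternative except expected counts not corrected for length, with 8, where log2 Slc7a5 over Slc7a8 was -0.17. The median over all genes shifted by -0.10 (log2) with spike-in scaling and by -0.12 on deposited TPM. With spike-ins, 1 member and 4 of the 39 pathway genes (members included) were called higher, in place of 3 and 7, and 20 pathway genes were called lower in place of 10. On deposited TPM the log2 ratio of Thra was -0.00, and 0.12 relative to all genes. In the second quantification the number of pathway genes called higher was 12. The Thra ratio of alpha2-type to alpha1 was 7.09, and 4.94 without Thra-203, an alternative added after seeing the data. Of 150 recalculated values of single genes, pairs or transcripts 113 kept their direction and call or moved by less than the spread, as did 32 of 37 recalculated counts and ratios. These totals include values recalculated without 1 replicate. With 2 libraries such a value always lies within the SD of their mean, so its label was fixed in advance. The counts of pairs and of leading models without 1 replicate were also fixed, as were the calls with a pseudocount of 2. The totals therefore overstate how much was tested. No paired analysis was possible because the series has a single group. Depth limits genes with few counts, such as Dio3 (39 and 69) and the choroid plexus markers.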
